A study of Mus musculus with 8 samples.

Results

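The genes described here mark the atrial and ventricular chambers of the heart. They are 9 genes of the 52778 features listed in the table, chosen by symbol: Myl7, Mybphl, Sln, Nppa and Nr2f2 as atrial genes, Myl2, Irx4 and Nppb as ventricular genes, and Nr2f1, a close relative of Nr2f2, placed in neither group. All 9 were found, each once on a reference chromosome. They were proposed with the difference between mutant and control hearts already known, so their own differences between the groups are given as a description, with no p-value for a member.

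RNA was sequenced from tissue labelled ventricular heart, taken from mouse embryos at embryonic day 11.5. There were 4 control libraries, with C57BL/6 WT in the genotype field, and 4 libraries titled Atf4 frameshift mutant. The mutants are homozygous for Atf4(del7/del7): CRISPR/Cas9 editing removed 7 bases from exon 3, which shifts the reading frame in the whole embryo rather than in cardiomyocytes alone and leaves the polyadenylation signal in place. ATF4 is a transcription factor of the amino acid and stress response. The genotype field of the mutants also reads C57BL/6 WT, while their treatment field names a global knockout of ATF4, so the grouping rests on the titles. The labels do not give litters or the number of founder lines.

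The heart at this stage has looped and its chambers are expanding from the original tube. Atrial and ventricular cardiomyocytes share most of their contractile genes and differ in a small set of myosin light chains, calcium regulators, hormones and transcription factors. Several of these become restricted only gradually: Myl7 is made throughout the early heart tube and is later confined to the atria, and Nppa is made in atrial muscle and in the trabeculae on the inner face of the ventricles. Bulk RNA cannot tell fewer cells of a type from less RNA per cell.

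Expression is given in TPM, a normalised abundance that corrects for gene length, so levels can be compared between genes. TPM keeps no read depth, so errors are SDs over the 4 libraries of each genotype. Listed features summed to between 923473 and 949762 TPM per library. The transcript of Atf4 itself rose from 112 ± 8.07 TPM in control hearts to 166 ± 15.1 TPM in mutant hearts (SD, n = 4 per genotype), with an adjusted p of 0.0430 in limma. In that fit 6 of 15545 tested genes passed an adjusted p of 0.05, a count that was 0 without the variance trend and 0 to 3 with any 1 library left out. The 7 pan-cardiomyocyte markers (Tnnt2, Actc1, Ttn, Tnni1, Nkx2-5, Mybpc3 and Ryr2) summed to between 18237 and 20195 TPM, and all were present in every library. The sample protocol also mentions cultured cortical neurons, but the 6 neuronal and neural crest markers summed to only 8.68 to 14.5 TPM, and the hepatocyte markers to at most 1.34 TPM.

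The start regions of 4 members are shown because these genes form pairs whose values are compared below. Myl7 and Mybphl are the pair of members with the highest Pearson correlation over the 8 libraries. Nppa and Nppb are neighbours on chromosome 4. Windows came from RefSeq on GRCm38.p6, which held 8 of the 9 genes; Sln was not matched. The 250 bases before the start were searched on both strands for 7 motifs. The TATA box was searched as TATAAA. The core bound by GATA factors, which drive many genes of heart muscle, was searched as GATAA. For NK2 homeodomain factors such as NKX2-5 the letters were AAGTG. T-box factors, which include TBX5 and TBX20, were represented by AGGTGT. The C/EBP-ATF element, to which ATF4 binds as a partner of C/EBP proteins, was searched as TGATGNAA. The CArG box of serum response factor and the MEF2 element were the others. Capitals mark matches. Myl7 is at chr11:5898783-5899032 on the minus strand, Mybphl at chr3:108364661-108364910 on the plus strand and Nppa at chr4:148000472-148000721 on the plus strand. For Nppb a stretch of 30 bases at chr4:147985799-147985828 on the plus strand is shown, which precedes the RefSeq start used for the window and lies inside the gene as listed.
Myl7: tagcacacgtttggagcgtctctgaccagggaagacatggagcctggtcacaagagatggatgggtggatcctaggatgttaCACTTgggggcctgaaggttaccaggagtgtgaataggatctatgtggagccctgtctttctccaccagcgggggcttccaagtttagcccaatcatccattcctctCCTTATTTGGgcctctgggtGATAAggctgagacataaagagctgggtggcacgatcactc
Mybphl: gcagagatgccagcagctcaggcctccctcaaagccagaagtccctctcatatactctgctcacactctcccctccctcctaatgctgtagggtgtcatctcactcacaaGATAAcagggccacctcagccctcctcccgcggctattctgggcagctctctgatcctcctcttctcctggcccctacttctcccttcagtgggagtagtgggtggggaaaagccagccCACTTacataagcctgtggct
Nppa: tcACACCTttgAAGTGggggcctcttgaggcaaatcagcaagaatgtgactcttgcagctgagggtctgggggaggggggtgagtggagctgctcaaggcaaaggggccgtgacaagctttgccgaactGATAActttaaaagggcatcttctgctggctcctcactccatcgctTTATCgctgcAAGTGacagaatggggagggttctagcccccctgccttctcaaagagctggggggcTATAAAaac
Nppb: tgcagctGATAAatcagaGATAAccccacc

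The Myl7 window held a CArG box from base -61 to base -52 before the start, a GATAA match from -41 to -37 and an NK2 match on the opposite strand from -168 to -164. A CArG box is in 1.47% of all 32851 RefSeq windows of this length. The Mybphl window held GATAA from -140 to -136 and an NK2 match from -21 to -17. The Nppa window held 2 GATAA matches, 2 NK2 matches, the T-box match and a TATA box. The Nppb window held GATAA from -94 to -90 and again from -83 to -79, with a TATA box from -31 to -26. Across the 8 genes, GATAA was found in 5 (22.6% of all windows) and AAGTG in 4 (40.7%). The T-box sequence was found in 1 gene (11.8% of all windows) and TATAAA in 3 (12.4%). The 8 genes have 10 windows and a match in any window counted, so counts per gene and shares per window are not alike. The TATAAA match of Nppa lay from -9 to -4, and that of Myl2 on the opposite strand from -216 to -211. The C/EBP-ATF element, in 3.45% of all windows, and the MEF2 element, in 2.92%, were in 0 of the 8. No match overlapped that of another motif. Such matches describe the letters in these windows and do not show binding.

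The members covered more than 4 orders of magnitude in level, and the ventricular light chain stood far above the rest. Myl2, the regulatory light chain of ventricular myosin, averaged 11301 TPM over the 8 libraries and ranked between the 3rd and the 9th most abundant feature. Myl7, its atrial counterpart, averaged 3479 TPM, and the lowest Myl2 library lay 6782 TPM above the highest Myl7 library. Nppa, the precursor of atrial natriuretic peptide, averaged 3060 TPM and overlapped Myl7 in range. Nppb, the precursor of B-type natriuretic peptide, followed at 386 TPM.

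Below the light chains and hormones came the transcription factors and the minor structural gene. Irx4, a homeodomain factor that favours ventricular identity, averaged 49.8 TPM and overlapped in range with Mybphl, a myosin-binding protein relative of atrial muscle and the conduction system, at 38.5 TPM. Nr2f2, the nuclear receptor COUP-TFII of atrial muscle and venous endothelium, averaged 10.7 TPM. Nr2f1, the nuclear receptor COUP-TFI, averaged 2.88 TPM. Sln, which encodes sarcolipin, a small inhibitor of the calcium pump in atrial muscle, averaged 0.354 TPM. Apart from the pairs Myl7 and Nppa, and Irx4 and Mybphl, no neighbours in this order overlapped over the 8 libraries. Together the 9 genes held 1.94% ± 0.0891 of listed TPM in control hearts and 1.97% ± 0.0468 in mutant hearts (SD, n = 4 per genotype).

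**Figure D1:**
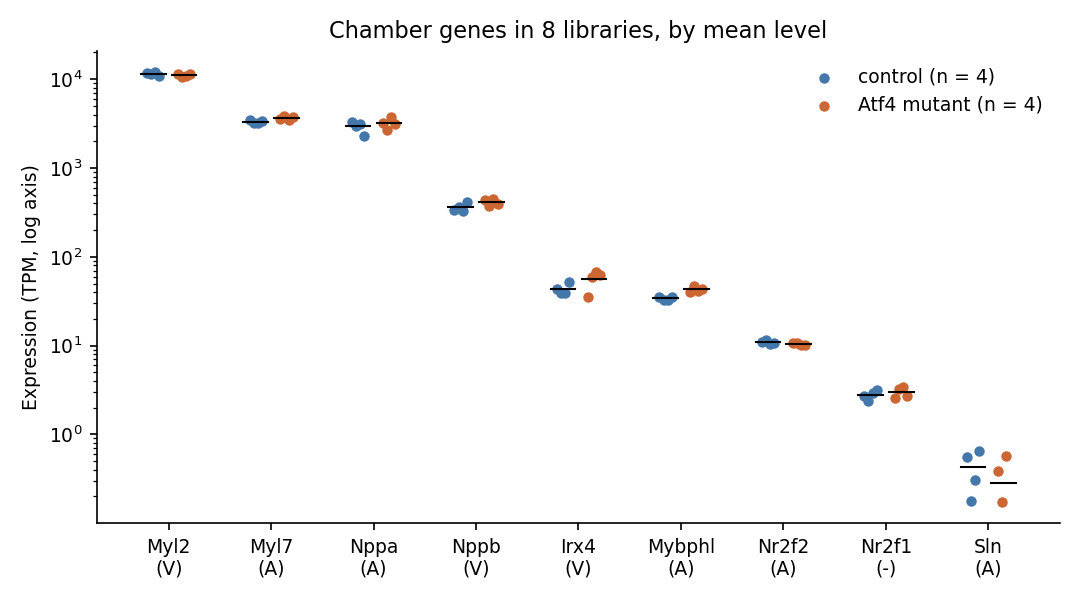
Expression of the 9 chamber genes in TPM on a log axis, ordered by mean level, with each control and each mutant library as a point and the group mean as a bar (A, atrial; V, ventricular). Myl2 lies above every other member in all 8 libraries, and Sln lies below 1 TPM throughout; mutant replicate 4, where Sln is listed at 0, cannot be drawn on this axis.

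Checked against the ventricular label of the tissue, the ventricular genes were abundant and Sln was near 0. Sln, which at later stages is an atrial gene, was listed at 0.560, 0.177, 0.310 and 0.654 TPM in control hearts and at 0.383, 0.175, 0.577 and 0 TPM in mutant hearts. These values overlap and lie below 1 TPM, so Sln was not carried into the fit. The atrial potassium channel gene Kcna5 was also low, at 3.06 ± 0.514 TPM in control hearts and 3.40 ± 0.414 TPM in mutant hearts (SD, n = 4 per genotype). Genes of the sinus venosus and sinoatrial region were mixed in level. Shox2, Isl1 and Vsnl1 stayed under the filter, and Shox2 averaged 0.475 TPM in control hearts and 0.394 TPM in mutant hearts. Tbx18, which is also a gene of the epicardium, held 36.2 and 32.5 TPM, Hcn4 18.5 and 20.04 TPM, and Tbx3, a T-box factor of the conduction system, 7.95 and 7.88 TPM.

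Of the 9 members, 8 reached the expression filter and 0 passed the adjusted threshold of the limma fit, where 0.0386% of all tested genes passed. At an unadjusted p below 0.05 there were 3 members, Myl7, Mybphl and Nppb, all higher in mutant hearts, against 6.10% of all tested genes, or 2.65% in that direction. In 1 member, Mybphl, the groups did not overlap, against 3.68% of all tested genes, or 1.63% with the mutants higher. The median log2 difference of the 8 members was 0.13, with 6 above 0 and 2 below, and that of all tested genes was -0.0033. Since this contrast is the one the genes were proposed with, nothing is read from these counts.

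The light chains are described first among the atrial genes. Myl7 (chromosome 11, bases 5896637 to 5898782, minus strand) was measured at 3475, 3197, 3186 and 3390 TPM in control hearts and at 3565, 3849, 3441 and 3731 TPM in mutant hearts. Only mutant replicate 3 lay inside the control range. The log2 difference on the log2(TPM + 1) scale was 0.14 with a standard error of 0.049, or 1.10-fold, and was 0.086 under quantile normalization.

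Mybphl (chromosome 3, bases 108364911 to 108380057, plus strand) held 35.1, 32.4, 33.0 and 35.3 TPM in control hearts and 40.4, 47.2, 40.8 and 43.8 TPM in mutant hearts. The lowest mutant library stood 5.08 TPM above the highest control library. Its log2 difference was 0.33 with a standard error of 0.057, or 1.27-fold, and stayed between 0.29 and 0.36 when each library was left out in turn. The feature Gm12522 overlaps Mybphl on the opposite strand and averaged 1.19 TPM, and whether counting used strand is not given in the sources used here.

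The hormone and the nuclear receptor complete the atrial members that reached the filter. Nppa (chromosome 4, bases 148000722 to 148002074) held 3272, 3006, 3169 and 2283 TPM in control hearts and 3218, 2666, 3762 and 3106 TPM in mutant hearts, and the ranges overlapped in part. Its log2 difference of 0.12 (standard error 0.13) rested on the low control replicate 4, without which it was 0.0077. It was 0.040 without mutant replicate 3 and 0.21 without mutant replicate 2. Nr2f2 (chromosome 7, bases 70351946 to 70366746) was the steadiest of the low members, at 10.9, 11.6, 10.4 and 10.6 TPM in control hearts and 10.7, 10.8, 10.0 and 10.2 TPM in mutant hearts. Its log2 difference was -0.050 with a standard error of 0.057, and it was -0.021 without control replicate 2 and -0.031 without mutant replicate 3.

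Among the ventricular genes, Myl2 (chromosome 5, bases 122092724 to 122113473) held 11847, 11401, 11979 and 10778 TPM in control hearts and 11327, 10631, 10991 and 11456 TPM in mutant hearts. The groups overlapped, and the log2 difference was -0.050 with a standard error of 0.052. It was -0.0062 under quantile normalization, -0.081 without control replicate 4, and -0.030 without control replicate 3 or without mutant replicate 2. Nppb (chromosome 4, bases 147985786 to 147987205) held 333, 365, 330.3 and 417 TPM in control hearts and 438, 371, 443 and 394 TPM in mutant hearts. The control libraries other than replicate 4 lay below every mutant library, and the log2 difference was 0.19 with a standard error of 0.083.

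Irx4 (chromosome 13, bases 73259589 to 73269622) was the least even of the members that reached the filter. The controls held 43.6, 39.0, 38.9 and 51.4 TPM and the mutants 34.9, 59.9, 68.2 and 62.5 TPM, so mutant replicate 1 was the lowest of all 8 libraries and the other mutants were the highest. The log2 difference of 0.34 had a standard error of 0.19, and it was 0.55 without mutant replicate 1. Nr2f1 (chromosome 13, bases 78188971 to 78198873) held 2.68, 2.37, 2.92 and 3.19 TPM in control hearts and 2.55, 3.25, 3.39 and 2.68 TPM in mutant hearts, a log2 difference of 0.064 (standard error 0.11) that was 0.0095 without control replicate 2. With a library left out it ranged up to 0.12, and it moved by over 1.5 times without control replicate 2 or 4 or without any 1 mutant library, and to 0.11 under quantile normalization. It overlaps A830082K12Rik on the opposite strand, at a mean of 1.19 TPM.

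**Figure D2:**
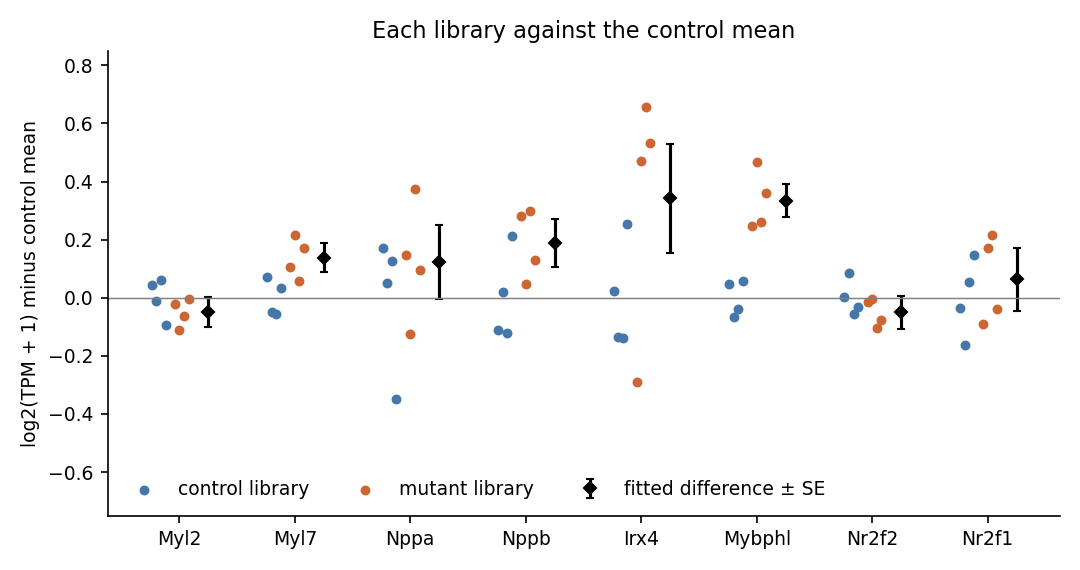
Values of log2(TPM + 1) in each library minus the control mean of the gene, for the 8 members that reached the filter, with the fitted mutant minus control difference and its standard error as a diamond. All 4 mutant libraries of Mybphl lie above its controls, whereas Irx4 has 3 mutant libraries above and mutant replicate 1 below every control.

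The chamber contrast was taken per library as the mean log2(TPM + 1) of the 5 atrial genes minus that of the 3 ventricular genes. It was -2.57, -2.68, -2.63 and -2.81 in control hearts and -2.57, -2.75, -2.82 and -2.88 in mutant hearts, with overlap. The group means were -2.67 ± 0.101 and -2.75 ± 0.134 (SD, n = 4 per genotype), a difference of -0.083 that is smaller than either SD. Its size depended on the settings: it was -0.19 with a pseudocount of 0.1, -0.051 without Nr2f2 and -0.024 without Sln, which is near 0 TPM. It was -0.049 without control replicate 1, -0.13 without control replicate 4, -0.14 without mutant replicate 1 and -0.041 without mutant replicate 4. Both sides of the contrast were higher in mutant hearts on average, by 0.077 for the atrial mean and 0.16 for the ventricular mean. Each of the means overlapped between the groups. Without Irx4, left out after its spread was seen, the difference was 0.0077. No test was made on a score over genes chosen in this way.

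Single ratios, chosen after the values were seen, split the atrial genes further. Myl7 per 100 Myl2 was 28.9 ± 2.06 in control hearts and 32.9 ± 2.28 in mutant hearts (SD, n = 4 per genotype), and only control replicate 4, at 31.5, reached the mutant range of 31.3 to 36.2. Mybphl per 1000 Myl7 was 10.2 ± 0.164 in control hearts, between 10.1 and 10.4, and 11.8 ± 0.386 in mutant hearts, between 11.3 and 12.3. Mybphl was higher in mutant hearts relative to Myl7 as well as in TPM, without overlap. The ratio of Nppa to Nppb spanned 5.47 (control replicate 4) to 9.82 (control replicate 1), and the mutants, between 7.18 and 8.49, lay inside that range.

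**Figure D3:**
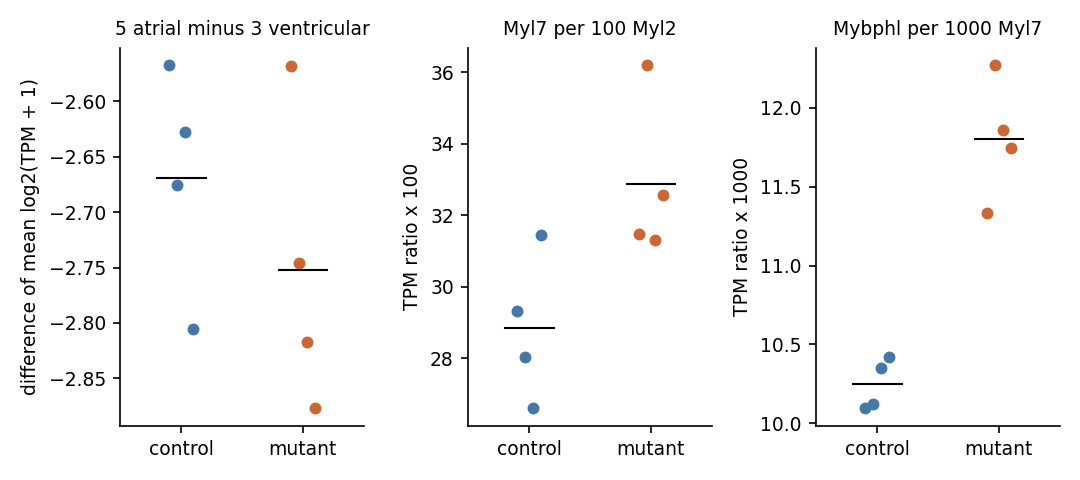
Atrial minus ventricular mean log2(TPM + 1), Myl7 per 100 Myl2 and Mybphl per 1000 Myl7 in each library, by group, with the group mean as a bar; the vertical axes do not start at 0. The first measure overlaps between groups, and the Mybphl ratio lies at 10.1 to 10.4 in control hearts and 11.3 to 12.3 in mutant hearts.

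The spread between libraries of the same group was not used in choosing the genes, and it set the ventricular factor and the hormones apart from the light chains. The residual SD of Irx4 was 0.33 on the log2 scale, 4.81 times the SD that the trend over all tested genes gives at its level. This ratio was larger than that of 98.9% of tested genes. For Nppa the SD was 0.22 and the ratio 3.13, above 96.4% of genes, and for Nppb 0.14 and 2.49, above 93.0%. The structural genes were near or below the trend, with ratios of 1.16 for Mybphl, 0.924 for Myl7 and 0.645 for Myl2. Nr2f2 had the lowest ratio, 0.499, and that of Nr2f1 was 0.843. Tbx5, a T-box factor of the atria and the left ventricle, was also uneven, from 21.4 to 42.5 TPM, with a ratio above that of 98.5% of genes.

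**Figure D4:**
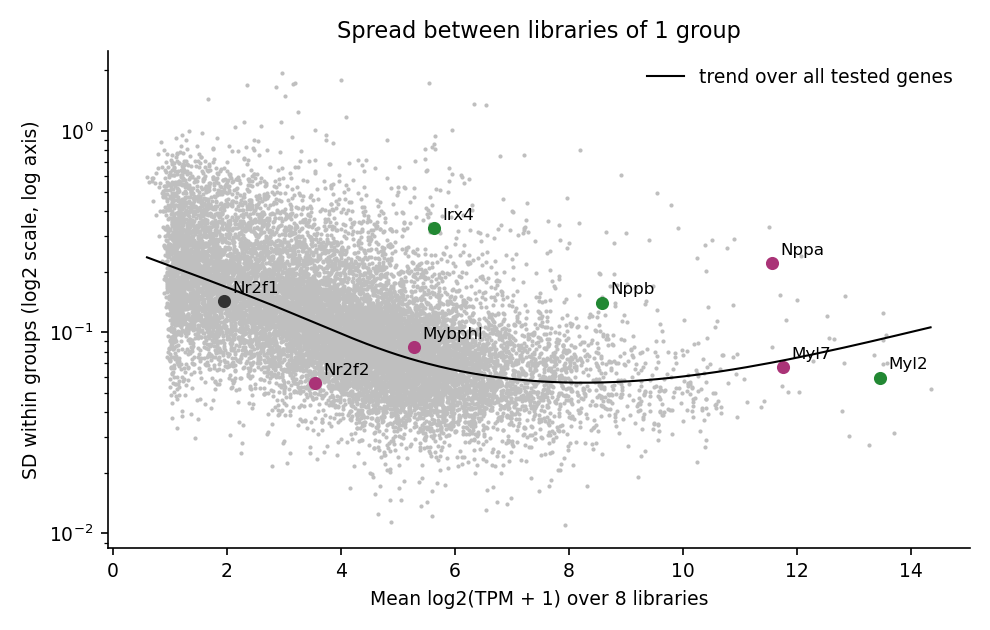
SD within groups against mean log2(TPM + 1) for all 15545 tested genes in grey, with the trend as a line and the members in colour (purple, atrial; green, ventricular; black, Nr2f1); the vertical axis is logarithmic. Irx4, Nppa and Nppb lie above the trend, at 4.81, 3.13 and 2.49 times its SD, and Myl2 and Nr2f2 below it.

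Whether members varied together between libraries was asked for all 36 pairs over the 8 libraries, with exact permutation p-values adjusted over the 36. Myl7 and Mybphl had Pearson's r of 0.938 (exact permutation p of 0.00069, adjusted 0.0250) and Spearman's rho of 0.857 (exact permutation p of 0.0107, adjusted 0.386). Without control replicate 3 and mutant replicate 2, which are farthest from the median of Myl7, r was 0.877 (exact permutation p of 0.0208, adjusted 0.25). Because Mybphl separates the groups, the value over all 8 includes the difference between them. As deviations from the group means r was 0.914 (exact permutation within groups, p of 0.0278, adjusted 0.769), and it was 0.933 in control hearts and 0.926 in mutant hearts, with 4 libraries each. The correlation passed the adjusted threshold by Pearson's r over the 8 libraries and not by rank. That p-value includes the difference between the groups, the contrast the genes were proposed with. It is therefore not read as covariation between dissections. Within groups, or with 6 libraries, the arrangements are too few for a single pair to pass. The smallest p they allow, adjusted over 36 pairs, is 0.0625 and 0.05, so only r is compared there. Before adjustment that smallest p is 0.0017 and 0.0014. Myl7 and Mybphl, at exact permutation p of 0.0278 and 0.0208, were not near it.

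No other pair had an unadjusted p below 0.05 by either coefficient. Of the 36 pairs, 17 had positive and 19 negative r, and the lowest was -0.625 between Nr2f2 and Nr2f1 (exact permutation p of 0.0932, adjusted 0.595; rho of -0.500, p of 0.216, adjusted 0.682). That value became 0.108 without control replicate 2 and mutant replicate 3. Nppb and Myl2, both ventricular, had r of -0.621 (exact permutation p of 0.107, adjusted 0.595; rho of -0.643, p of 0.0962, adjusted 0.682). Without control replicate 4 and mutant replicate 2 it was -0.914 (exact permutation p of 0.0125, adjusted 0.225). Its sign differed between the groups, at -0.998 over the 4 controls and 0.417 over the 4 mutants, which was not tested. The neighbours Nppb and Nppa, whose listed ends are 13516 bases apart, had r of 0.026 (exact permutation p of 0.955, adjusted 0.994; rho of 0.143, p of 0.752, adjusted 0.967), and -0.049 without control replicate 4 and mutant replicate 3. Over the 4 controls alone their r was -0.968 and over the 4 mutants 0.894, opposite signs over few libraries that were not tested.

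**Figure D5:**
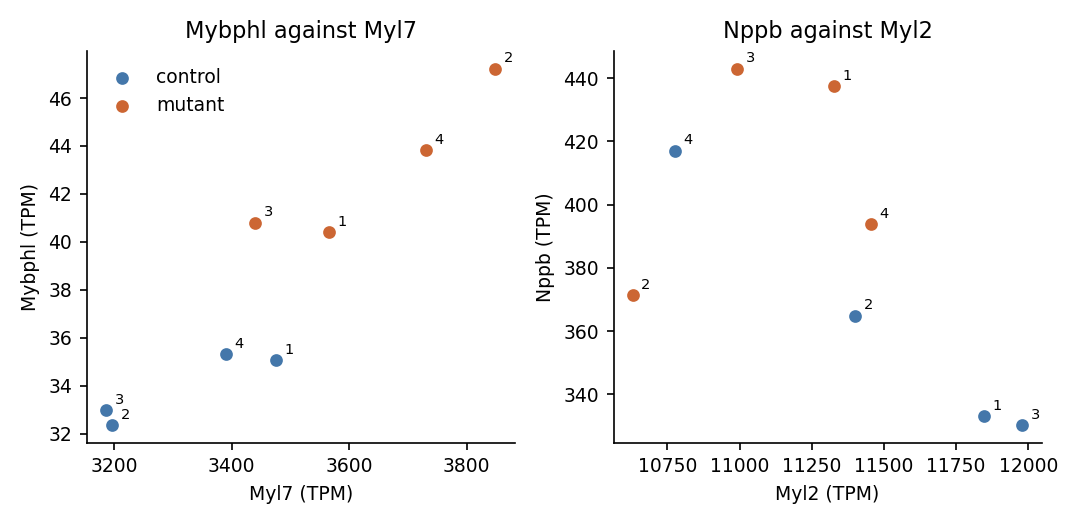
Mybphl against Myl7 (left) and Nppb against Myl2 (right) in TPM, with each library as a point labelled by its replicate number and coloured by group. Mybphl climbs with Myl7 in both groups. Their r of 0.938 over the 8 libraries on the log2(TPM + 1) scale includes the difference between the groups. Nppb and Myl2 had r of -0.621, which did not pass its test.

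The 11620 other tested genes with a mean of at least 5 TPM were then ranked by Pearson's r with each member over the 8 libraries on the log2(TPM + 1) scale. With so many genes and 8 libraries high values are frequent, and they are given as a description. Group means were not removed, so for a member that differs between the groups, such as Mybphl, r includes that difference. Myl7 was most like Frmd4b (0.971), Tpx2 (0.944), a spindle factor, and Hmga1b (0.944). Mybphl was most like Mdk (0.988), the growth factor midkine, then Bmp5 (0.938), a bone morphogenetic protein ligand, and Rragd (0.934), a GTPase of the amino acid sensing pathway. Irx4 was most like Gm3325 (0.990), Phldb1 (0.957) and Zscan22 (0.956), and Nppb was most like P3h2 (0.970), Ubqln2 (0.964) and Mob3a (0.95). Nppa was closest to Gm39469 (0.956), Avl9 (0.955) and Gstz1 (0.95). Myl2 was closest to Anapc15 (0.959), Ldhb (0.948), a lactate dehydrogenase subunit, and Gm5561 (0.947). Genes close to Nr2f2 included Mir343 (0.945) and Pgm2 (0.938), and Nr2f1 was closest to Ccdc77 (0.933), Gm8129 (0.922) and Fam114a2 (0.919). For Sln, whose values are near 0, the closest were Zfp467 (0.981), Chst12 (0.959) and Nlgn2 (0.949).

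Other genes of the chambers were taken from lists by function. For the counts below, 6.10% of all tested genes had an unadjusted limma p below 0.05, or 2.65% with the mutants higher. Of 14 further atrial genes, all tested, 0 passed the adjusted threshold, 2 were higher at an unadjusted p below 0.05 and 0 lower, and the median log2 difference was -0.0039. Myl4, the essential light chain shared by early atria and ventricles, held 4215 ± 160.2 TPM in control hearts and 4162 ± 131 TPM in mutant hearts (SD, n = 4 per genotype). Myh6, the alpha myosin heavy chain, held 1516 ± 124 and 1505 ± 94.5 TPM. Those with an unadjusted p below 0.05 were Myl1, another light chain, at a log2 difference of 0.21 (limma adjusted p of 0.780), and Pam, an enzyme of peptide amidation, at 0.094 (adjusted p of 0.800).

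Of 14 further ventricular genes, all tested, 0 passed, with 1 higher and 1 lower at an unadjusted p below 0.05 and a median log2 difference of -0.032. Myh7, the beta myosin heavy chain, held 5018 ± 152 TPM in control hearts and 4919 ± 318 TPM in mutant hearts. Myl3, the ventricular essential light chain, held 3467 ± 117 and 3421 ± 142 TPM. Hand1, a factor of the left ventricle, differed by 0.13 (limma adjusted p of 0.809) and Fhl2, a LIM-domain protein, by -0.11 (adjusted p of 0.800). The relatives of Irx4 in the same list, Irx1, Irx2, Irx3 and Irx5, were named after their values were seen and had log2 differences of -0.14, 0.066, -0.11 and 0.067.

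Among 10 genes of the trabeculae and the working chamber muscle, 0 passed, with 1 higher and 0 lower at an unadjusted p below 0.05 and a median of -0.026. That gene was Bmp10, the bone morphogenetic protein that sustains growth of trabecular muscle. It held 109 ± 2.09 TPM in control hearts and 129 ± 10.2 TPM in mutant hearts, without overlap, a log2 difference of 0.24 (limma adjusted p of 0.549). Erbb4, the neuregulin receptor, differed by 0.17 (adjusted p of 0.840). Cited1 and Smpx, the most abundant of the list, differed by -0.025 and -0.058.

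In the pathway of the natriuretic peptides, Corin and furin cut the precursors, NPR1 and NPR2 make cyclic GMP, and NPR3 clears the peptides. Of 10 genes 9 were tested and 0 passed, with 1 higher and 1 lower at an unadjusted p below 0.05 and a median of 0.029. Corin held 26.4 ± 0.890 TPM in control hearts and 29.0 ± 1.34 TPM in mutant hearts, a log2 difference of 0.13 (limma adjusted p of 0.800). Npr1, the receptor of ANP and BNP, held 8.27 ± 0.642 and 6.85 ± 0.408 TPM, a difference of -0.24 (adjusted p of 0.780). In both the groups did not overlap. The same held for Npr2, the receptor of the C-type peptide, at 10.5 ± 0.256 and 9.65 ± 0.109 TPM, which was named after its values were seen. So 3 of 9 tested genes did not overlap between groups, against 3.68% of all tested genes, and none of them passed the adjusted threshold. Nppc, the untested gene of the list, lay below the filter, at 0.528 ± 0.159 TPM in control hearts and 0.131 ± 0.0410 TPM in mutant hearts. Its groups did not overlap either, at values near 0. Npr3 and Furin, the most abundant, differed by 0.093 and 0.029.

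Of the partners of Sln, Atp2a2, the calcium pump of the heart, held 819 ± 31.6 TPM in control hearts and 834 ± 27.7 TPM in mutant hearts, and Pln, the pump inhibitor phospholamban, 646 ± 39.5 and 621 ± 15.6 TPM. Of 4 tested genes in this list 0 passed and 0 had an unadjusted p below 0.05. Atp2a1, the skeletal muscle pump, was near 1 TPM and differed by 0.19 (limma adjusted p of 0.854). Of 16 tested relatives and partners of the myosin light chains and of Mybphl, 0 passed and 1, Myl1, had an unadjusted p below 0.05. Mybpc3, the cardiac myosin-binding protein C, differed by -0.090 (limma adjusted p of 0.821), the opposite sign to Mybphl.

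For the COUP-TF genes the relevant partners are the retinoid pathway, which sets up atrial identity, and the venous endothelium, where Nr2f2 is also made. Of 14 tested retinoid genes and receptors 0 passed and 0 had an unadjusted p below 0.05. Aldh1a2, the enzyme that makes retinoic acid, differed by -0.19 (limma adjusted p of 0.841), and Aldh1a1, a related enzyme, by 0.19 (adjusted p of 0.903). Nr2f6, the most abundant COUP-TF relative, and Rara, a retinoic acid receptor gene, differed by 0.018 and 0.012. Of 10 venous and arterial endothelial genes 0 passed and 1 was lower at an unadjusted p below 0.05. That gene was Aplnr, the apelin receptor, at 3.32 ± 0.778 TPM in control hearts and 2.14 ± 0.112 TPM in mutant hearts (log2 difference -0.44, adjusted p of 0.721). Nrp2 differed by -0.11 (adjusted p of 0.922), and the abundant receptor genes Nrp1 and Ephb4 by 0.032 and -0.024.

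The factors that control chamber genes were 15, all tested, of which 0 passed, with 2 higher and 0 lower at an unadjusted p below 0.05 and a median of 0.065. They were Hand1 and Nkx2-5, the NK2 homeodomain factor, at 126 ± 4.21 TPM in control hearts and 137 ± 5.40 TPM in mutant hearts (log2 difference 0.11, limma adjusted p of 0.780). Tbx20 and Gata4, the most abundant, differed by 0.0035 and -0.0018. Of 9 tested genes of the atrioventricular canal and outflow tract, and 3 of the sinus venosus, 0 passed. The sinus venosus list had 1 gene with an unadjusted p below 0.05, Tbx18, at a log2 difference of -0.16 (adjusted p of 0.809), and Hcn4, the pacemaker channel gene, differed by 0.11. In the canal and outflow list Cacna1g, a calcium channel gene near 1 TPM, differed by -0.22 (adjusted p of 0.840) and Rspo3, a Wnt enhancer, by 0.20 (adjusted p of 0.857), while Wnt5a and Sema3c differed by 0.014 and -0.031.

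Markers of other cell types were compared beside these results. The 6 macrophage markers, Csf1r, Ptprc, C1qa, Cx3cr1, Lyz2 and Mrc1, summed to 61.4 to 78.2 TPM in control hearts and 51.0 to 61.7 TPM in mutant hearts. All 5 tested macrophage markers lay below 0 and 0 passed. An unadjusted limma p below 0.05 was found for 3 of them, against 6.10% of all tested genes. In 2 the groups did not overlap, against 3.68% of all tested genes. The 6 erythroid markers summed to 3967 to 6728 TPM and 3710 to 5216 TPM, with 5 of 6 below 0 and 1 lower at an unadjusted p below 0.05. Endocardial and endothelial, epicardial, and valve and outflow markers had medians of -0.0085, -0.022 and 0.038, with 0 genes at an unadjusted p below 0.05. The part of these cells in the values of Mybphl, Myl7 or Nppb was not tested.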

How the data were processed

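The authors deposited 1 table of TPM, in which each library has its own column. Per the submitters' processing notes the tools were FastQC, Trim Galore 0.6.7, HISAT2 2.2.1, StringTie 2.2.1, featureCounts and DESeq2, with GRCm38 and mm10 as builds. Which of these made the TPM, the strand setting, and the handling of reads that map to several places are not given in the sources used here. Per the labels the libraries are biological replicates with the batch label 1. The labels name both a stranded poly(A) kit and ribosomal RNA depletion.

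Values were analysed as log2(TPM + 1), so fold changes of low genes are understated. A gene was fitted if 4 or more libraries reached 1 TPM. The fit used limma 3.58.1 (R 4.3.3) on genotype alone, with a variance trend. Its p-values were two-sided and Benjamini-Hochberg adjusted, with a threshold of 0.05. The fit was run on simulated data, but its recovery at differences as small as those of the members is not reported here. Correlations used two-sided exact permutation (Python 3.11.15, scipy 1.17.1). Coordinates are those of the table, and the members' starts and ends equal RefSeq GRCm38.p6. Replicate numbers did not pair the libraries, so no block was used.

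The members and lists were chosen with earlier results of these data known. Named genes are the members, in each list the 2 with the smallest p and the 2 most abundant, and the 3 most like each member; others were named after their values were seen. Some genes that this rule names are not reported here. The alternatives changed the pseudocount (0.1), the filter (none, or 5 TPM), the scaling (median of ratios, quantiles, or TPM recomputed after removing haemoglobin and mitochondrial genes), the variance trend and the replicate block, left out each library in turn, and varied the genes of the chamber contrast.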

Additional observations from a re-analysis of the deposited data

How the results depend on the processing

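The number of genes past the adjusted threshold was 6, and it was 0 without a filter, 0 without a variance trend and 0 with the replicate number as a block; leaving out any of the 8 libraries gave 0 to 3. The chamber genes past the threshold were 0 under all of these. The log2 difference of each tested member kept its sign in the 12 alternatives that can move it (other filters, the variance trend and the block cannot), and that of Irx4 ranged from 0.24 to 0.55 over the libraries left out. The replicate numbers did not pair the libraries: deviations of same-numbered libraries correlated between -0.082 and 0.035. Of the 36 pairs of members, 1 passed over the 8 libraries, with a p-value that includes the difference between the groups. The count was 0 as deviations from group means and 0 without the 2 libraries farthest from the median. There the number of arrangements lets no single pair pass, so these counts say nothing about stability. The chamber contrast ranged from -0.14 to -0.041 over the libraries left out, and from -0.19 with a pseudocount of 0.1 to 0.0077 without Irx4 over the other settings. TPM gives no depth, so the precision of low genes such as Sln and Nr2f1 is unknown. Of 28 groups of 4 values, 0 held a library that stood apart by Dixon's criterion, where 1.4 were expected by chance. With 4 values the criterion flags only extreme gaps, so it does not show that no single library moved a result. The difference of Nppa, for example, rested on control replicate 4.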
